A study of Mus musculus with 45 samples.

Results

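The liver's average transcriptional response to insulin was examined in mice fed a high-fat diet (HFD). Livers taken 15, 60 and 120 min after an insulin injection were set, as 1 pooled group, against basal livers of mice on the same diet. The comparison covers 9 insulin libraries and 3 basal libraries of the 45 in the series, and all genes: 14067 of 23227 had enough reads to be tested, and 3737 had no read in any library. The libraries were taken by label, and the times were pooled because single times had given almost no calls in these data. The mice were wild-type C57BL/6J, aged 24 weeks and starved overnight, and the sequenced material was polyA RNA from whole liver.

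The insulin groups had eaten HFD for 16 weeks, from 8 weeks of age, and received 1 U/kg of insulin in PBS into the peritoneum. There were 3 libraries at each of the 3 times, and the times entered the mean with equal weights. A 30 min insulin group of 6 libraries on the same diet was not part of the mean and was added in 1 alternative only. The basal group, also 3 libraries, had the same diet, age and starvation and no insulin or metformin. The labels name no vehicle injection for it, so insulin and the act of injection cannot be told apart. Mice on standard chow, with 3 libraries at each of the same times and 3 at basal, serve below for the test of whether the response differed between diets. No label gives the sex of the mice or links libraries to shared mice, litters or days. P-values therefore measure the spread between libraries only. That spread was estimated over all 45 libraries of the series, in 14 groups, some with metformin or a shorter HFD.

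As background, insulin reaches the liver after a meal, and its receptor acts through IRS proteins, PI3-kinase and the kinase AKT. AKT keeps FoxO transcription factors out of the nucleus, which lowers genes of fasting such as Igfbp1, G6pc, Pck1 and Irs2, and insulin raises the lipogenic regulator Srebf1. A second branch runs through MAP kinases to immediate early genes such as Egr1. Insulin resistance on a high-fat diet is a known state in which some of these arms respond less.

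The promoters of 2 FoxO targets and of a clock gene are shown because the genes recur in the results below. Each is the 250 bases before the RefSeq start in build GRCm38.p6, in the gene's own direction. They are Igfbp1 at chr11:7197537-7197786, plus strand, G6pc at chr11:101367466-101367715, plus strand, and Gm129, now named Ciart, at chr3:95882229-95882478, minus strand. Capitals mark CAAAACA or its reverse complement TGTTTTG, the core letters of insulin response sequences, in the first 2, and the E-box letters CACGTG, to which clock factors are known to bind, in Gm129.
Igfbp1: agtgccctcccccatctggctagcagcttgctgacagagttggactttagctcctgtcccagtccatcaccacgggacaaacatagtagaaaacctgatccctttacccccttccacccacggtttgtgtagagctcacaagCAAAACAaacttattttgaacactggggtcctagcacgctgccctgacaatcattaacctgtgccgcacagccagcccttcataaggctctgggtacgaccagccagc
G6pc: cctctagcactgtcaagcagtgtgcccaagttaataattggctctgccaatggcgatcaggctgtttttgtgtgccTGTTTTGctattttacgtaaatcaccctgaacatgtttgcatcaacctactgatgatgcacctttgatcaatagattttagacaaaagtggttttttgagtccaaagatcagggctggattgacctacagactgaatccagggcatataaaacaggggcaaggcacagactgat
Gm129: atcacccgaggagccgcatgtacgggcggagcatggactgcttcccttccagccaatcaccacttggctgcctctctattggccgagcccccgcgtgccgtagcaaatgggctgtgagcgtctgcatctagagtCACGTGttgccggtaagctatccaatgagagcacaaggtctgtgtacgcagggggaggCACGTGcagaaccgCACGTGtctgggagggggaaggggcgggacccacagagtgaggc
Both motifs were searched on both strands. CAAAACA was present in 4.04% and CACGTG in 8.12% of the 10952 promoters of tested genes in the table. Of the 7 genes described first below, 6 had a promoter there, and CAAAACA was found in those of Igfbp1, Irs2 and G6pc. GTAAACA, a FoxO site, was present in 2.32% of promoters and in none of the 6.

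The 12 libraries held 18.3 to 25.4 M counted reads, with 18.3 to 25.4 M after insulin and 21 to 23.9 M at basal. Hepatocyte markers summed to 78700 to 118000 CPM (counts per M reads, scaled by library size) after insulin and 90200 to 110000 CPM at basal. Some libraries stood apart by genes of other tissues. Pancreatic acinar markers summed to 25200 CPM in 15 min replicate 3 and 3740 CPM in 120 min replicate 3, within an insulin range of 16.8 to 25200 CPM against 10.8 to 232 CPM at basal, where Prss1 had no read. Skeletal muscle markers summed to 672 CPM in 60 min replicate 3, within an insulin range of 15.5 to 672 CPM against 22.8 to 28.8 CPM at basal, where Myh1, Tnnt3, Tnnc2 and Pvalb had no read. Female-biased liver genes were highest in basal replicate 3 and next in 60 min replicate 2, with sums of 195 to 725 CPM after insulin and 414 to 859 CPM at basal. Male-biased liver genes summed to 8260 to 19200 CPM after insulin and 9030 to 18700 CPM at basal. They were lowest in 60 min replicate 2 (8260 CPM) and next in basal replicate 3 (9030 CPM).

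No gene passed the test in the pooled comparison. Of 14067 genes tested, 0 (0%) had an adjusted p under 0.05 in edgeR's quasi-likelihood test with Benjamini-Hochberg adjustment over all genes, and the smallest adjusted p was 0.194. At an unadjusted p under 0.05, 643 genes (4.57%) were on the higher and 507 (3.6%) on the lower side after insulin. In 136 genes (0.967%) all 9 insulin libraries lay above all 3 basal libraries, and in 148 genes (1.05%) all 9 lay below. DESeq2 called 13 genes, all higher, and limma on the deposited normalized values called 0. Of those 13, Ckmt2, Myh1, Tnnc2, Tnnt3, Trdn and Xirp2 are skeletal muscle genes. They had no read in any basal library and were highest in 60 min replicate 3. The others included Fam108b, Fam117b, Naa50, Ppp1cb, Rnf2 and Tmed5, with DESeq2 log2 fold changes of 0.246 to 0.533. Without basal replicate 3, edgeR called 3 genes, Mzt1, Ppp1cb and Qk.

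The intervals describe the pooled mean of each gene taken alone, without adjustment for the number of genes. They are not a detection limit, because a call needed an adjusted p under 0.05. A response at a single time enters the mean at reduced size. At the median over all genes tested, the 95% interval reached 0.285 to either side of the pooled log2 fold change. Over the 9396 genes that averaged 5 CPM or more, it reached 0.226. For 97.2% of these 9396 genes the whole interval lay within a 2-fold change in either direction, and for 88.1% within 1.5-fold. Over all genes tested the shares were 85.6% and 67.2%. A pooled change of 2-fold or more was thus outside the interval of most well-measured genes.

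Of the 9396 genes, 34 had a pooled value over 2-fold higher and 2 over 2-fold lower. Most of the 34 were pancreatic acinar genes such as Cel, Cpb1 and Try4, highest in 15 min replicate 3, and 5 were skeletal muscle genes, highest in 60 min replicate 3. Over the whole lists, 21 of 21 acinar and 16 of 16 muscle markers had a value above zero, with medians of 3.50 and 4.08 on the log2 scale and 0 called. Igfbp1 and Egr1, described next, were also among the 34. Both genes over 2-fold lower, Cyp2b13 and Cyp3a44, are female-biased P450 enzymes highest in basal replicate 3, and both share sequence with other genes, so that their counts are uncertain.

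Igfbp1, a secreted IGF-binding protein that fasting raises and insulin lowers in healthy liver, lies at mm9 chr11:7097790-7102549 on the plus strand with 4 exons. After insulin its level was 27, 61.3 and 221 CPM in the lowest, median and highest of the 9 libraries, against 44.3, 31.8 and 32.4 CPM in the 3 basal libraries. The groups overlapped, with 7 of 9 insulin libraries above the basal mean. Its pooled log2 fold change was 1.26 ± 0.45 (standard error, SE; 95% interval 0.34 to 2.17; edgeR adjusted p = 0.542), and the values at 15, 60 and 120 min were 0.65, 1.42 and 1.71. The value was on the side opposite to the fall that insulin is known to give, and it did not pass the test. On chow the pooled value was 0.62 ± 0.43, and the difference between diets, 0.64 ± 0.59, did not pass either.

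The other FoxO-type genes lay closer to zero. G6pc, the last enzyme of glucose release (mm9 chr11:101229044-101239217, plus strand), had 93.4, 232 and 366 CPM in the lowest, median and highest insulin library, against 205, 175 and 146 CPM at basal, and a pooled value of 0.37 ± 0.30 (95% interval -0.24 to 0.98). Pck1, which starts gluconeogenesis from oxaloacetate, had 1920, 3010 and 4690 CPM after insulin, against 3510, 2640 and 2680 CPM at basal, with a pooled value of 0.07 ± 0.18 (interval -0.30 to 0.44). Irs2, an adaptor of the insulin receptor that FoxO raises, had 6.73, 13.5 and 16.6 CPM after insulin, against 11, 10.1 and 8.03 CPM at basal, with a pooled value of 0.28 ± 0.38 (interval -0.49 to 1.05). In all 3 genes the groups overlapped, and the lowest insulin libraries were at 60 min, replicate 2 for G6pc and replicate 3 for Pck1 and Irs2. Irs2 overlaps the exons of an antisense gene, whose reads the unstranded library kit cannot separate.

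Srebf1, Egr1 and Rgs4 did not pass the test either. Srebf1, the transcription factor of fatty acid synthesis (mm9 chr11:60012591-60034106, minus strand), had 70.5, 101 and 186 CPM after insulin, against 101, 136 and 113 CPM at basal, and a pooled value of -0.12 ± 0.23 (interval -0.59 to 0.34). Egr1, an immediate early zinc-finger factor, had 15.2, 53 and 203 CPM after insulin, against 23.8, 51.1 and 11 CPM at basal. The Egr1 value was 0.24 ± 0.70 at 15 min, 0.86 ± 0.70 at 60 min and 2.36 ± 0.73 at 120 min, with 1.15 ± 0.61 pooled (adjusted p = 0.636). At 120 min its 3 libraries, at 149, 89 and 203 CPM, all lay above the 3 basal libraries, but the adjusted p there was 0.392. Rgs4, a regulator of G-protein signalling (mm9 chr1:171671608-171677773, minus strand), had 1.51, 2.63 and 4.63 CPM after insulin, against 1.2, 1.79 and 1.1 CPM at basal. All 9 insulin libraries lay above the Rgs4 basal mean, yet the groups overlapped, and the pooled value of 0.95 ± 0.36 had an adjusted p of 0.548. The values of Rgs4 were 1.21, 1.28 and 0.35 at 15, 60 and 120 min, and 0.07 ± 0.34 pooled on chow.

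**Figure D1:**
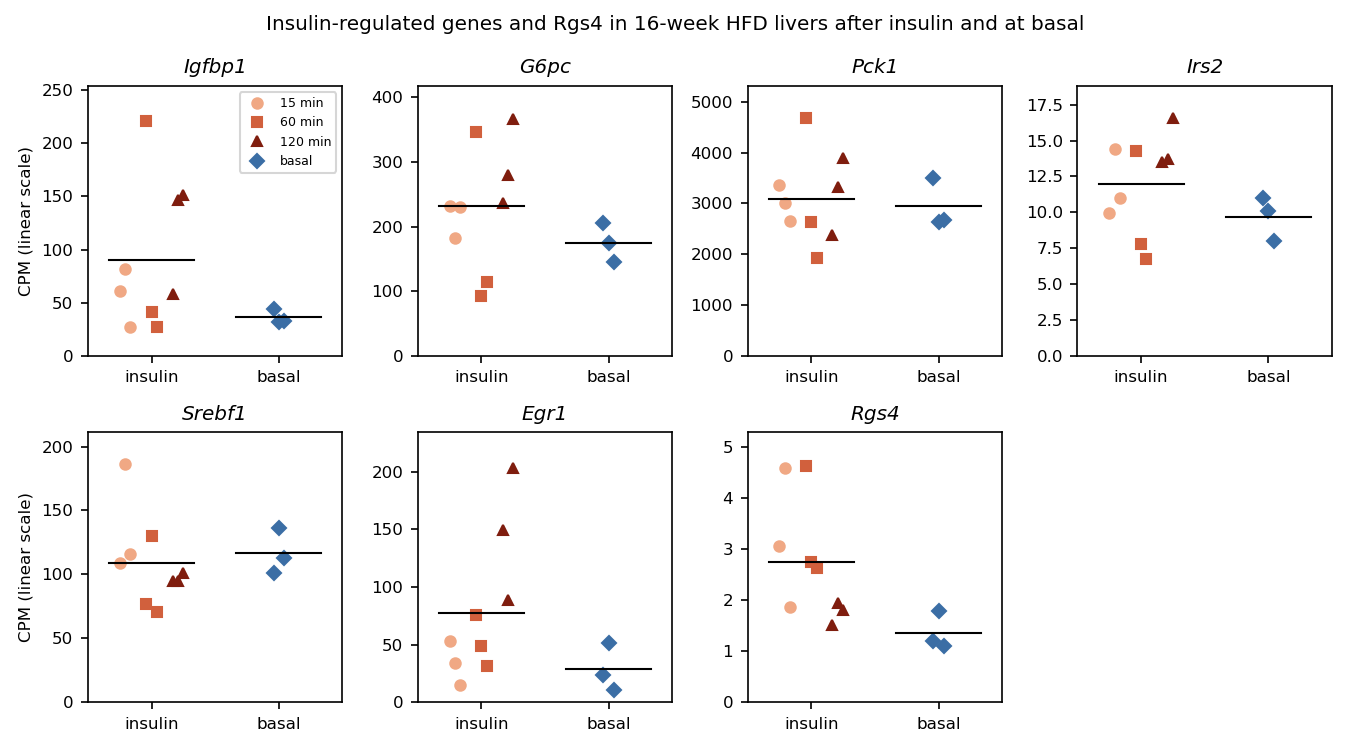
CPM (linear axis from 0) of 7 genes in each 16-week HFD library, with the 9 insulin libraries on the left, marked by time, and the 3 basal libraries on the right; horizontal bars are group means. The groups overlap in every panel, and the highest Egr1 points are the 120 min libraries, at 89 to 203 CPM.

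No single time gave more than 1 call in edgeR, and the scarcity of calls at single times was the reason for pooling. At 15 min edgeR called 0 genes, with 742 at an unadjusted p under 0.05. DESeq2 called 4, Cd207, Gse1 and the skeletal muscle genes Myh4 and Tnnt3. At 120 min edgeR called 0, with 1176 unadjusted. DESeq2 called 8 there, among them the skeletal muscle genes Myh1, Tnnc2, Tnnt3, Trdn and Xirp2. At 60 min DESeq2 called 21 genes. Skeletal muscle genes among these were Acta1, Atp2a1, Ckmt2, Mybpc1, Myh1, Myh8, Myot, Pvalb, Tnnc2, Tnnt3, Trdn, Ttn and Xirp2. At that time edgeR called 1 gene, Fam108b, now named Abhd17b, a depalmitoylating enzyme at mm9 chr19:21727799-21760127. Fam108b had 23.1, 16.9 and 22.7 CPM at 60 min, against 14, 10.7 and 13.1 CPM at basal, and rose by 0.73 ± 0.13 on the log2 scale (adjusted p = 0.0265). That call was lost when only the groups compared were fitted, when trends with gene length and GC content were removed, with limma, and when basal replicate 3 and 60 min replicate 3 were both left out. It was also lost without 60 min replicate 1 and without basal replicate 2, each of which left 0 calls. Without 60 min replicate 3 the calls were Fam117b and Rasgef1b, and without basal replicate 3 the call was Ppp1cb. All 3 times share the basal libraries.

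Differences among the 3 times do not use the basal libraries, and no gene passed this test (0 called by edgeR, 658 at an unadjusted p under 0.05, 1 by DESeq2). Gse1, a chromatin-associated protein gene, had the smallest adjusted p, 0.208. It was at 16.6, 19.7 and 19.7 CPM at basal, 32.6, 34.2 and 35.9 CPM at 15 min, 17, 21.7 and 16.7 CPM at 60 min and 19.5, 18.5 and 21.7 CPM at 120 min. All 3 libraries at 15 min lay above every other 16-week HFD library of this comparison. The log2 difference of 120 from 15 min was -0.78 ± 0.18, and Gse1 was the 1 gene that DESeq2 called among times. Gse1 overlaps exons of Gins2 on the other strand. Among the 8 genes with the smallest p, Bcl6, a transcriptional repressor, had 15.9, 15.1 and 62.2 CPM at basal, 68.3, 47.3 and 22.9 CPM at 15 min, 8.98, 35.5 and 18.1 CPM at 60 min and 10.8, 10 and 9.45 CPM at 120 min. Its log2 difference of 120 from 15 min was -2.19 ± 0.54 (adjusted p of the test among times 0.582). Basal replicate 3 lay as high as the 15 min libraries. Mycl1, now Mycl, a relative of Myc, had 8.44, 8.35 and 7.45 CPM at basal, 13.3, 12.7 and 11 CPM at 15 min, 8.25, 6.68 and 7.54 CPM at 60 min and 6.88, 4.2 and 7.83 CPM at 120 min. Hdac5, a class II histone deacetylase, had 34.5, 36.6 and 37 CPM at basal, 40.3, 41 and 37.3 CPM at 15 min, 31.9, 34.3 and 31.4 CPM at 60 min and 30.2, 26.5 and 30.4 CPM at 120 min. Both were highest at 15 min. Neither passed (adjusted p = 0.582 for both).

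The genes with the smallest p in the pooled comparison were picked after their values were seen. They describe where these libraries came closest to a call in edgeR. Ppp1cb, a catalytic subunit of protein phosphatase 1 (mm9 chr5:32761343-32796085), had 103, 114 and 122 CPM in the lowest, median and highest insulin library, against 90.8, 75.5 and 101 CPM at basal, with a log2 fold change of 0.34 ± 0.07 (adjusted p = 0.194). All 9 of its insulin libraries lay above the 3 basal libraries. Fam108b (0.52 ± 0.11 pooled), Fam117b (0.54 ± 0.12), the Polycomb ligase Rnf2 (0.44 ± 0.10) and the secretory-pathway cargo receptor Tmed5 (0.50 ± 0.12) did not overlap either. Skil, a repressor of TGF-beta signalling, had 20.5, 23.2 and 48.6 CPM after insulin, against 13.8, 17.6 and 17.8 CPM at basal. Its value was 0.71 ± 0.21 (edgeR adjusted p = 0.423). DESeq2 called Ppp1cb, Fam108b, Fam117b, Rnf2 and Tmed5, with DESeq2 adjusted p from 0.000948 for Ppp1cb to 0.0407 for Rnf2. Ppp1cb was called under 2 of 27 alternatives, and Fam108b, Fam117b, Rnf2 and Tmed5 under 1 each.

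On the lower side, Araf, a RAF kinase of the MAP kinase branch, had 57.9, 62.6 and 65.2 CPM after insulin, against 74.7, 73.2 and 69.4 CPM at basal, with -0.22 ± 0.06 (adjusted p = 0.394). Banp, a CpG-binding transcription factor, had 7.83, 9.52 and 11.7 CPM after insulin, against 19.6, 15 and 13.4 CPM at basal, with -0.67 ± 0.19. The groups did not overlap in Araf and Banp. Zfp276, a zinc-finger gene at -0.48 ± 0.13, did not overlap either, but it shares 777 exon bases with Fanca on the opposite strand, and Araf shares a few with Syn1.

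These small shifts went along with GC content and gene length. Over 13915 tested genes with a transcript sequence (98.9%), the pooled log2 fold change had a Spearman correlation of -0.28 with GC content and over all tested genes one of 0.28 with exon length, given as descriptions across genes of the same libraries. Genes on the higher side at an unadjusted p under 0.05 had a median GC content of 43.5% and a median exon length of 4013 bases. Genes on the lower side had 54.1% and 1915 bases, and all tested genes 49.6% and 2815 bases. Of the 2783 genes with a GC content of 31% to 43.8%, 329 were on the higher and 16 on the lower side, while of the 2783 genes with 55.3% to 72.8%, 35 were on the higher and 192 on the lower side. With smooth trends in length and GC removed from each library, the correlations were -0.01 and 0.05, and 340 genes were on the higher and 598 on the lower side. Small correlations are built in by that removal. The libraries themselves ran from -0.47 (60 min replicate 3) to 0.38 (basal replicate 2) in the correlation of their deviations with GC, at 0.21, 0.38 and 0.06 at basal, 0.36, 0 and 0.24 at 15 min, -0.14, -0.03 and -0.47 at 60 min and -0.22, 0.01 and -0.28 at 120 min. The basal values overlapped those at 15 min and lay above those at 60 and 120 min. The part of these trends in the single-gene values above was not tested beyond that removal, under which 0 genes were called.

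**Figure D2:**
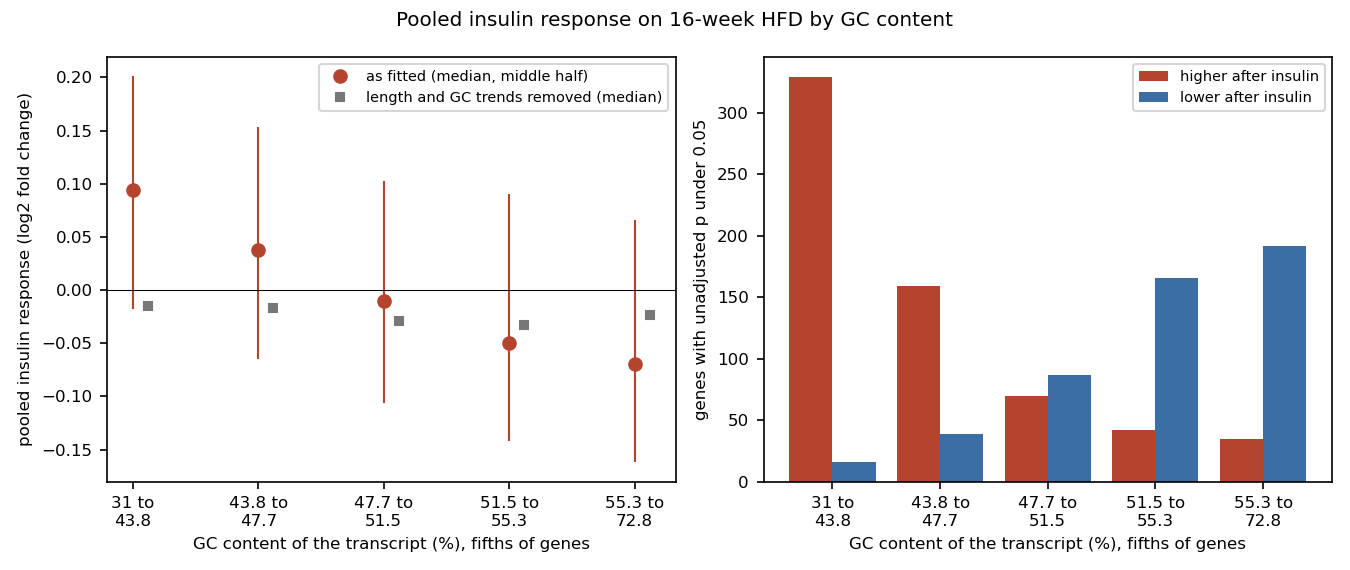
Tested genes in 5 bins of equal size by transcript GC content (horizontal axes, %). Left, the median pooled log2 fold change with the interquartile range as fitted (red) and the median with length and GC trends removed (grey squares); right, numbers of genes with an unadjusted p under 0.05 that were higher or lower after insulin. The fitted median is 0.0942 in the bin of lowest GC and -0.0694 in the bin of highest GC, and the higher and lower counts change places across the bins.

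None of 26 pathway lists held a called gene, against 0% of all genes, and list medians are given beside the median of all tested genes, 0.00176. At an unadjusted p under 0.05, 4.57% of all genes were on the higher and 3.6% on the lower side. Of 19 FoxO-type fasting targets tested, 1 was on the higher side at an unadjusted p under 0.05 (Igfbp1) and 0 on the lower, with a median of 0.0514. Of 20 genes of gluconeogenesis and amino acid catabolism, 0 and 1 were (Gpt, alanine aminotransferase, -0.31 ± 0.15), with a median of 0.0143. Of 24 lipogenic genes, 0 were on either side, with a median of -0.098. Among these, Scd1, the main desaturase, had 2330, 2930 and 4560 CPM after insulin, against 997, 3870 and 13100 CPM at basal, so the basal libraries alone spanned a wider range than the insulin libraries. Of 23 genes of cholesterol synthesis and uptake, 0 were on either side, with a median of -0.0617.

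Of 26 genes of the insulin receptor pathway, 2 were on the higher side, Tsc1, an inhibitor of mTOR complex 1 (0.26 ± 0.09, groups not overlapping), and Gsk3b, the kinase that restrains glycogen synthase (0.23 ± 0.11). Of all genes tested, 4.57% were on the higher side. Of 24 immediate early factors, 0 were on either side, with a median of 0.169, and 20 of the 24 had a value above zero. Of 14 MAP kinase phosphatases and Sprouty genes, 1 was on the higher side, with a median of 0.199. The MAP kinase phosphatase Dusp1 had 15.2, 32.3 and 152 CPM after insulin, against 24.4, 22.8 and 21.4 CPM at basal. Of 12 regulators of G-protein signalling with enough reads (19 in the list), 2 were on the higher side, Rgs4 and Rgs1 (1.14 ± 0.41), and 1 on the lower, Rgs12 (-0.45 ± 0.16). Interferon-stimulated genes had 2 of 27 on the higher side, with a median of 0.105.

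In the 2 lists with the most members on the lower side, the count was 0 when 1 basal library was left out, a different one for each list. Of 27 genes of xenobiotic metabolism, 7 were on the lower side at an unadjusted p under 0.05, against 3.6% of all genes, and 0 on the higher, with a median of -0.324. They included Gstm2, a glutathione transferase, with 24.7, 31.3 and 38.6 CPM after insulin, against 31.8, 39.4 and 69.4 CPM at basal. The highest basal value was that of replicate 3, the library with the most female-biased transcripts. Cyp2a4, Cyp2b9, Cyp2b13, Cyp3a16, Cyp3a41a and Cyp3a44 belong to the xenobiotic and to the female-biased list, so they are counted in both. Without basal replicate 3, 0 of the 27 were on the lower side and the median was -0.0864. The cause was not tested. Without the 120 min group 3 were on the lower side, and with limma 2. Of 30 respiratory chain subunits, 5 were on the lower side, among them Ndufb8 of complex I and Uqcrc1 of complex III, and 0 of the 30 had a value above zero, with a median of -0.128. Across all genes tested, 7094 of 14067 were above zero. Other lists were also mostly below zero. Cytosolic ribosomal proteins had 1 of 35 above zero, with a median of -0.0651 and 0 on the lower side at an unadjusted p under 0.05. MHC class I and immunoproteasome genes had 2 of 14 above zero, with a median of -0.0527. With length and GC trends removed, 6 of the respiratory chain subunits were on the lower side, against 4.25% of all genes. Their median was -0.081, against -0.0239 over all genes. Without basal replicate 1, 0 were on the lower side and the median was -0.0515. The count was 1 without 15 min replicate 2, 60 min replicate 1 or 120 min replicate 2, 3 without 120 min replicate 3, 2 without the 60 min group and 1 without the 120 min group. With the deposited normalized values and limma, 0 were on the lower side and the median was -0.0237.

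No marker in the lists of resident cells other than hepatocytes was called, and their values are described by list. Of all 14067 genes tested, 7094 had a value above zero and 4.57% were on the higher side. Of 16 Kupffer cell and macrophage markers, 15 had a value above zero, with a median of 0.50, and 2 were on the higher side at an unadjusted p under 0.05, among them Vsig4, a complement receptor of Kupffer cells. Vsig4 had 23, 25.2 and 45.1 CPM after insulin, against 12.8, 26.2 and 18.9 CPM at basal. The list summed to 496 to 1350 CPM after insulin and to 357 to 671 CPM at basal, lowest in replicate 1. After insulin it was highest in 120 min replicate 2, then in 15 min replicate 2 (1080 CPM), and 740 CPM or less in the rest. Of 14 endothelial markers 14 were above zero, with a median of 0.154 and sums of 508 to 800 CPM after insulin and 421 to 748 CPM at basal. Of 19 stellate cell and matrix markers 12 were above zero, with a median of 0.058, and of 7 cholangiocyte markers 3 were, with a median of -0.15. The sums of these lists overlapped too, at 393 to 611 CPM after insulin and 292 to 686 CPM at basal for stellate cells, and at 45.9 to 64.5 CPM after insulin and 47.7 to 72 CPM at basal for cholangiocytes. In whole liver, more cells of a type and more RNA per cell cannot be told apart.

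**Figure D3:**
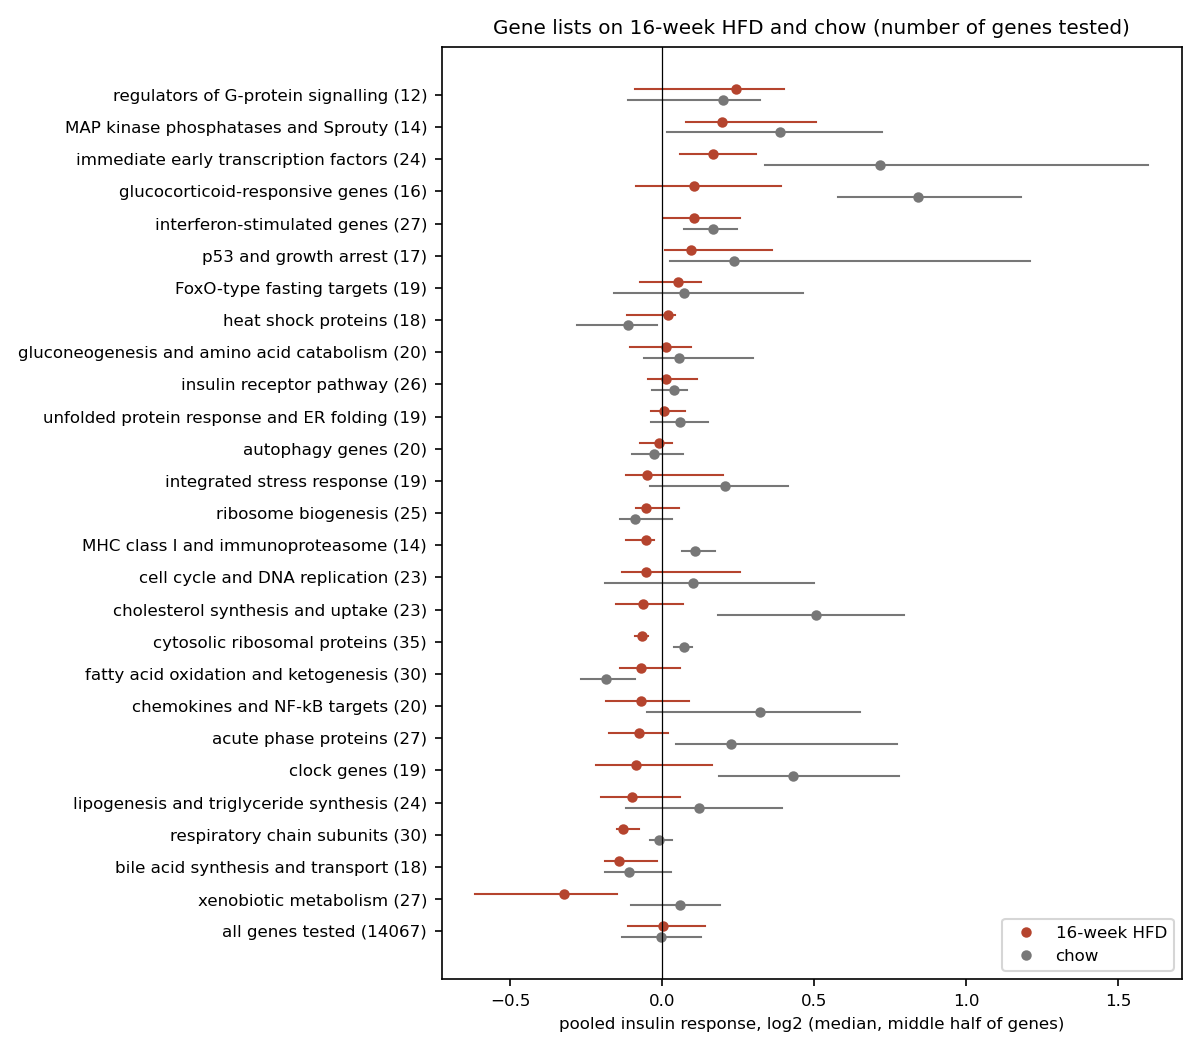
Median (point) and interquartile range (line) of the pooled insulin response, log2 fold change against basal, for 26 pathway lists and all tested genes, on 16-week HFD (red) and on chow (grey). On HFD the medians stay between -0.324 (xenobiotic metabolism) and 0.243 (regulators of G-protein signalling), whereas on chow they reach 0.841 (glucocorticoid-responsive genes).

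The same contrast on chow was used to test whether the response differed between diets. Chow livers had 235 genes called higher (1.67%) and 237 called lower (1.68%), and no library is shared with the HFD contrast. Of the chow calls, 7 of the lower genes were skeletal muscle markers. In the test of the difference itself, 24 genes were called (0.171%), 7 with a higher and 17 with a lower response on HFD. At an unadjusted p under 0.05, 892 genes (6.34%) responded higher and 880 (6.26%) lower on HFD. The count of 24 was unsteady, at 1 to 81 when single libraries were left out, with 1 call each without HFD basal replicate 1 and without chow basal replicate 2.

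Bhlhe40, a clock repressor also known as DEC1, lies at mm9 chr6:108610623-108616919 on the plus strand. On HFD it had 64.9, 88.9 and 135 CPM in the lowest, median and highest insulin library, against 109, 115 and 96.6 CPM at basal. On chow it had 80.4, 111 and 221 CPM after insulin, against 27.4, 26.7 and 27.7 CPM at basal. The groups overlapped on HFD and stood fully apart on chow. Its pooled value was -0.17 ± 0.19 on HFD and 2.07 ± 0.22 on chow, a difference of -2.24 ± 0.28 (edgeR adjusted p = 2.89e-05), which was called under 38 of 38 alternatives. Bhlhe40 overlaps an antisense gene over 118 exon bases.

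The other genes with a lower response on HFD had varied roles. Gm129, a repressor of the clock that carries 3 CACGTG motifs in the promoter shown above, averaged 30.3 CPM after insulin and 37.4 CPM at basal on HFD, and 27.4 and 4.37 CPM on chow, with a difference of -2.90 ± 0.61. Plk3, a stress-responsive Polo-like kinase, averaged 122 CPM after insulin and 90.3 CPM at basal on HFD, and 242 and 33.2 CPM on chow, with a difference of -2.41 ± 0.50. Slc2a1, the glucose transporter GLUT1, averaged 14.4 CPM after insulin and 14.7 CPM at basal on HFD, and 17.5 and 7.91 CPM on chow, with a difference of -1.17 ± 0.22. In each gene the basal level was higher on HFD than on chow, and the HFD groups overlapped. Mnt, a MAX-binding antagonist of MYC, had a difference of -1.39 ± 0.29, Plekhf1, an endosomal protein, one of -1.07 ± 0.20, and Rara, a retinoic acid receptor, one of -0.92 ± 0.18. The differences of Rhobtb1, Phf13, C77080, B230312A22Rik (now Fam214b), Pid1, Rab4b, Smoc1, 1300018I17Rik, Rab40c and 0610040J01Rik ran from -1.34 to -0.44. Of these, Rab4b is uncertain through shared sequence, and Plk3, C77080 and 1300018I17Rik share exon bases with an opposite gene.

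Of the 17 genes, 14 had a promoter in the RefSeq table, and CACGTG was found in 3 (Mnt, Gm129 and 0610040J01Rik), against 8.12% of promoters of tested genes. The clock list held 2 of the 24 calls, Bhlhe40 and Gm129. Its 19 tested genes had a median of -0.0842 on HFD and 0.432 on chow, where 5 were called higher, against 1.67% of all genes, and 0.171% of all genes were called in the difference. Glucocorticoid-responsive genes, 16 in number, had a median of 0.105 on HFD and 0.841 on chow, with 4 called higher on chow and 0 in the difference. Per1 belongs to both the clock and the glucocorticoid list and was called higher on chow, so it is counted in both. Immediate early factors had medians of 0.169 on HFD and 0.716 on chow, with 7 of 24 called higher on chow and 0 in the difference. At an unadjusted p under 0.05, the response was lower on HFD in 7 of the 19 clock genes, 5 of the 16 glucocorticoid-responsive genes and 9 of the 24 immediate early factors, against 6.26% of all genes.

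The 7 genes with a higher response on HFD included Eml4, Crebzf, Pphln1, Tmed5, 4632415L05Rik and Trim43b. Eml4, a microtubule-binding protein, had 19.3, 20.5 and 24.3 CPM after insulin, against 16.8, 19.1 and 18.7 CPM at basal on HFD, and on chow 17.5, 20.3 and 22.2 CPM after insulin, against 26.2, 29.4 and 25.6 CPM at basal. Its pooled value was 0.23 ± 0.08 on HFD and -0.41 ± 0.08 on chow, and the groups did not overlap on either diet, in opposite directions. Crebzf, a bZIP repressor, differed by 0.64 ± 0.13. Trim43b averaged under 1 CPM in all groups and is uncertain through shared sequence.

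In all 24 genes the basal libraries differed between diets. For the 17 with a lower response on HFD, all HFD basal libraries lay above all chow basal libraries, as they did in 23.5% of tested genes. For the 7 with a higher response, all HFD basal libraries lay below, as in 24.7% of tested genes. The basal libraries enter the difference itself, so this is a description and was not tested. All 17 were called higher on chow, and 3 of them had an unadjusted p under 0.05 on HFD. Of the 7, 5 were called lower on chow, and 6 had an unadjusted p under 0.05 on HFD.

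**Figure D4:**
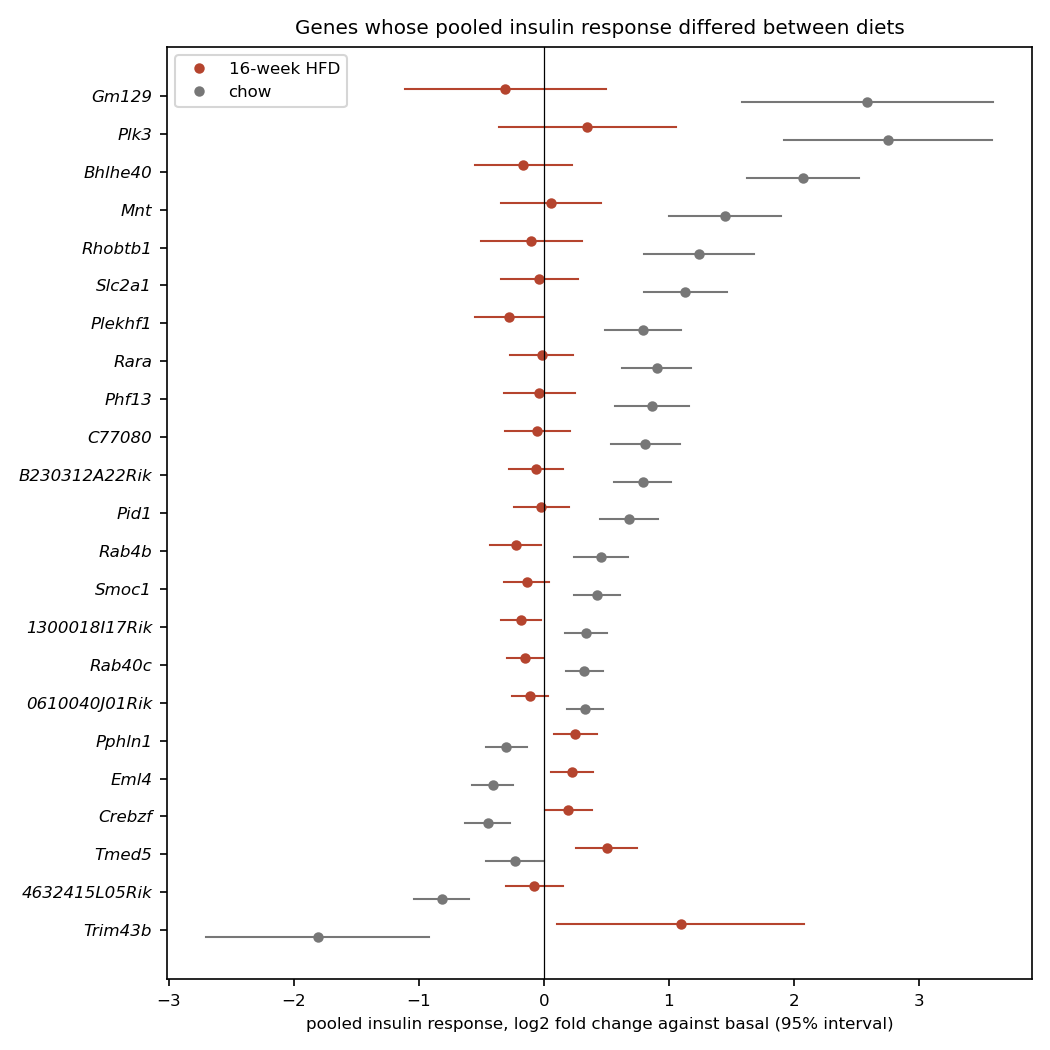
Pooled insulin response (log2 fold change against basal, with 95% interval) of genes whose response differed between diets, on 16-week HFD (red) and chow (grey). For Bhlhe40 the HFD point is at -0.17 and the chow point at 2.07; most HFD intervals cover zero.

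The 472 genes called on chow were followed in the HFD livers. They were chosen by their chow values, so a smaller value on HFD is in part built in, while the HFD values come from other libraries. The 235 genes that rose on chow, by a median of 0.651, had a median of 0.0424 on HFD, with an interquartile range of -0.0611 to 0.153. On HFD, 17 of them (7.23%) were on the higher side at an unadjusted p under 0.05, against 4.57% of all genes, and 4 (1.7%) on the lower, against 3.6%. The 237 genes that fell on chow, with a median of -0.523, had a median of -0.0313 on HFD, with an interquartile range of -0.123 to 0.0958. On HFD, 15 of them (6.33%) were on the lower side, against 3.6% of all genes, and 7 (2.95%) on the higher, against 4.57%. The absolute log2 fold change was smaller on HFD in 235 of the 235 and 235 of the 237 genes. Of the 472, the difference between diets was called in 17 of the first set and 5 of the second. With length and GC trends removed, the HFD medians were 0.0302 and -0.0853, against -0.0239 over all genes. Under that setting 12 genes of the first set (5.11%) were on the higher side and 2 (0.851%) on the lower, and 2 of the second set (0.844%) were on the higher side and 26 (11%) on the lower. Of all genes, 2.42% were then on the higher and 4.25% on the lower side.

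**Figure D5:**
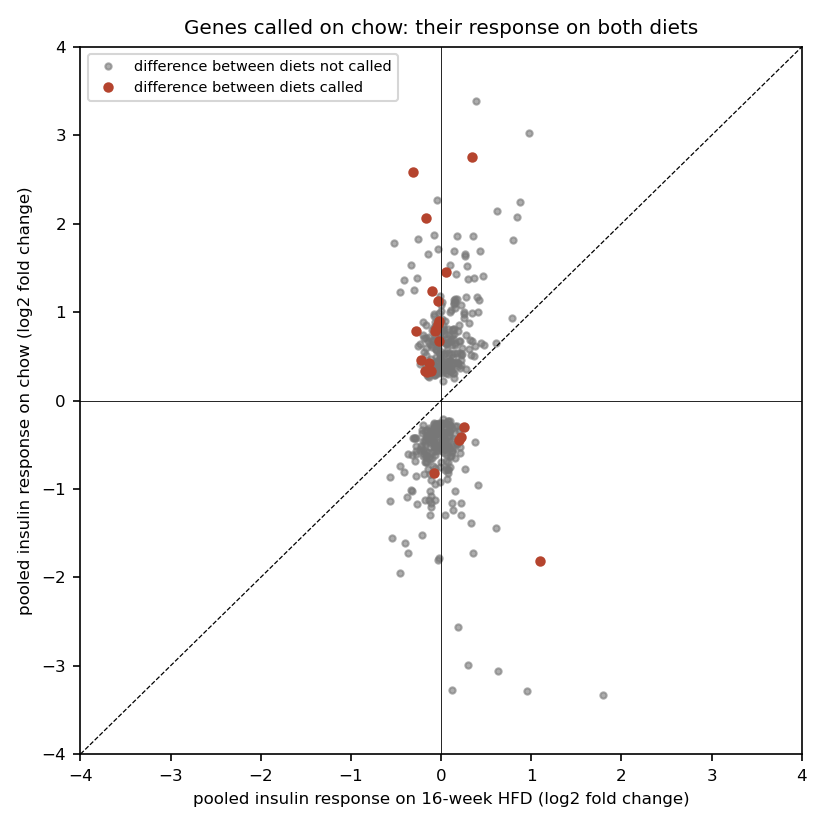
Pooled insulin response of genes called on chow, log2 fold change on 16-week HFD (horizontal) against chow (vertical); red points are genes whose difference between diets was called, and 14 of the 472 lie outside the axes. The points spread along the vertical axis and gather near zero on the horizontal one, with HFD medians of 0.0424 for genes that rose and -0.0313 for genes that fell on chow.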

How the data were processed

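Read counts per gene were used as the authors deposited them, for polyA RNA of 45 liver libraries made with a TruSeq version 1 kit, which does not keep strand, and sequenced as paired reads. Per the submitters' processing notes, TopHat 1.4.0, HTSeq, DESeq2 1.0.18 and build mm9 were used. The second deposited table holds a signal, read counts normalized with CQN and DESeq2 by the authors per the labels' file names; it was used in 1 alternative, as log2 of the value plus 1, with limma 3.58.1. It was normalized separately for each diet (18 libraries in the 16-week HFD table), so it was not used across diets.

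Groups were taken from titles. Genes were kept by filterByExpr (minimum count 10) and scaled by TMM, and all 45 libraries were fitted in edgeR 4.0.16 with 1 coefficient for each of the 14 groups. Each contrast had a quasi-likelihood F test with Benjamini-Hochberg adjustment, and a gene was called at an adjusted p under 0.05. Standard errors were derived from each fold change and its F statistic, and are unusable for genes with no read in a group. CPM are TMM-scaled counts. DESeq2 1.42.0 was an alternative. Other alternatives were RLE scaling, no filter, a fit of the groups compared, the replicate number as a block, removal of trends with length and GC (natural splines, 5 degrees of freedom), leaving out libraries or times, and 30 min as an added time. The test script was tested on simulated data.

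Rules named the largest and most significant called genes of the pooled comparison and of lists with calls (none existed), a fixed set of genes whatever they do, and the 8 smallest adjusted p among times and between diets. A few of the genes so chosen are not reported here. All others named were chosen after their values were seen. The members and lists were chosen with earlier results of these data known. Positions come from the mm9 gene models that were deposited; GC and shared 40-base words come from GENCODE M21, and genes with at least 20% of their words in other genes are called uncertain. The groups carry the same replicate numbers, whose meaning the labels do not give; same-numbered insulin and basal libraries deviated from their group means with correlations of -0.36 to 0.33, so they were not taken as pairs. R 4.3.3 and Python 3.11.15 were used.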

Additional observations from a re-analysis of the deposited data

Results flagged for a closer look

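The response to insulin differed between diets in 24 genes, by the edgeR test of the difference itself (adjusted p under 0.05, HFD minus chow on the log2 scale). Lower on HFD were Bhlhe40 (-2.24), B230312A22Rik (-0.85), Slc2a1 (-1.17), Plekhf1 (-1.07), Rara (-0.92), Mnt (-1.39), Plk3 (-2.41), Gm129 (-2.90), C77080 (-0.86), Rab4b (-0.68), Rab40c (-0.48), Rhobtb1 (-1.34), 1300018I17Rik (-0.52), Phf13 (-0.90), Pid1 (-0.70), 0610040J01Rik (-0.44) and Smoc1 (-0.56). Genes higher on HFD included Eml4 (0.64), Crebzf (0.64), Pphln1 (0.55), 4632415L05Rik (0.74), Tmed5 (0.73) and Trim43b (2.91). The adjusted p ran from 2.89e-05 for Bhlhe40 to 0.0495 for Smoc1 and Trim43b. Besides Bhlhe40, no gene of the 24 was called without HFD basal replicate 1.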

How the results depend on the processing

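The pooled comparison gave 13 calls with DESeq2, 3 without basal replicate 3 and 0 under every other edgeR or limma alternative run (0 to 3 when single libraries were left out). DESeq2 gave 4 calls at 15 min, 21 at 60 min, 8 at 120 min and 1 among times. Those at 15, 60 and 120 min included the skeletal muscle genes named above. The 60 min comparison gave 0 calls in the fit of the groups compared with and without the replicate block, with length and GC trends removed with and without the block, with limma, and without the 2 libraries that stood apart, an alternative chosen after seeing the data; single libraries left out gave 0 to 2. Those at 15 and 120 min and among times gave 0 to 0 when single libraries were left out.

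The 24 calls between diets became 153 with DESeq2, 10 without a filter, 105 in the fit of the groups compared, 43 with the replicate block, 73 with the block in the fit of the groups compared, 6 with the 9 insulin libraries as 1 group, 147 without 15 min, 11 without 60 min, 1 without 120 min and 13 with 30 min as an added time. With trends removed 24 genes were called, 15 of them shared with the reported 24. Single libraries left out gave 1 to 81. On HFD the counts were 6 and 7 without 15 min replicates 2 and 3, 81 and 7 without 60 min replicates 1 and 3, 14, 9 and 6 without 120 min replicates 1 to 3, and 1, 8 and 46 without basal replicates 1 to 3. On chow they were 9 without 15 min replicate 3, 5 without 60 min replicate 3, 60 and 5 without 120 min replicates 1 and 3, and 9, 1 and 7 without basal replicates 1 to 3. The other libraries moved it by less than 1.5 times. Called genes on chow numbered 472 in the reported fit, 722 without 15 min, 181 without 120 min and 103 to 601 when single libraries were left out, with 197, 103 and 281 without chow basal replicates 1, 2 and 3. Of 2196 alternatives of 72 single-gene values, 2176 kept the direction, and no call changed sign. The causes were not tested.

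With the replicate block the pooled comparison and the test among times gave 0 calls each. Of 9 insulin libraries, 3 correlated best with the basal library of their own number, and same-numbered libraries of different insulin times correlated from -0.19 to 0.68. The limma alternative was not run between diets, because the tables had been normalized separately. The 3 basal libraries enter every fold change against basal, and no limit on precision was compared.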
